A study of Mus musculus with 22 samples.

Results

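The lower and upper spinal cord of the mouse were compared 48 h after the aorta had been clamped. The comparison rested on 8 of the 22 arrays of the series: 4 labelled caudal and 4 labelled rostral, all taken 48 h after clamping and chosen by those labels. Which other arrays entered the fit was decided with earlier results of these data known. The same regional difference was measured in 3 caudal and 4 rostral sham arrays, so that a difference present without clamping could be read beside each result. All mice were C57Bl/6 wild type, 10 to 12 weeks old, from Jackson Laboratories. The clamped groups had the aorta cross-clamped for 7.5 min, and the other groups had sham surgery. The labels give no time after surgery for the sham groups. Total RNA came from cord above T6 (rostral) and below it (caudal). The arrays are numbered 271 to 274 after clamping and 277 to 280 in sham, with the same number on a caudal and a rostral array except for sham number 277, which is rostral only. The labels do not say that numbers are animals or that tissues were not pooled, so every p-value measures the spread between these samples, which may be partly technical.

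Clamping the aorta stops blood flow to the lower cord most severely, because the upper cord keeps a supply from arteries that leave the aorta before the clamp. Ischemia followed by reperfusion is known to activate microglia and endothelium, to induce cytokines and chemokines that draw in blood leukocytes, and to kill motor neurons and interneurons. Position along the cord is also written in the Hox genes, transcription factors that are expressed in order from head to tail, so caudal and rostral tissue differ without any injury.

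Each gene was represented by the probe set with the highest mean signal. Levels are log2 signals. Differences are log2 differences, caudal minus rostral unless stated, on which a value of 1 is a 2-fold difference. Calls are at an adjusted p under 0.05 (limma, Benjamini-Hochberg over 18193 genes, two-sided). Errors after ± are standard errors, and intervals are 95% intervals.

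The region genes of the 8 clamped arrays followed their region labels. Mbp, myelin basic protein, was measured at a similar level in both regions, with a difference of -0.07 (interval -0.24 to 0.10). On a scale set by the sham arrays themselves, where the 78 genes called between sham regions are at 0 in rostral and 1 in caudal sham cord, the medians of the rostral arrays at 48 h were -0.01, 0.06, -0.05 and -0.03. The caudal arrays at 48 h lay at 0.50, 0.80, 0.74 and 0.70, with array 271 lowest. Sham caudal cord is at 1 by the choice of genes and scale, so values below 1 cannot by themselves show a loss of regional difference. The caudal arrays at 48 h also varied most: the median SD over genes was 0.343, against 0.105 in rostral arrays at 48 h, 0.0985 in caudal sham and 0.0885 in rostral sham. Caudal array 271 had a narrower spread of signals over probe sets than the others (SD 2.05 against 2.22 to 2.27) and the lowest median correlation with them (0.912 against 0.974 to 0.995). The 5' minus 3' signal of Gapdh, a sign of RNA integrity, was -1.05 on caudal array 274 and -0.68 on sham caudal array 280, and between -0.21 and 0.04 on the other 13, and its part in the results was not tested. Because the fit shares 1 estimate of spread over 15 arrays, it takes less spread for the caudal 48 h group than that group showed. For the rostral groups it takes more spread than they showed, so a rostral change short of the test is not evidence of no change. No fit of the rostral arrays alone was made. Counts from a fit of the 8 arrays alone therefore stand beside the results. In bulk tissue, fewer cells of a type and less RNA per cell cannot be told apart.

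In the shared fit the caudal cord had more called differences from the rostral cord at 48 h than in sham. At 48 h it had 694 genes at a higher level (3.81%) and 334 at a lower level (1.84%), and 323 of the higher and 57 of the lower differed by at least 2-fold. An unadjusted p under 0.05 (limma) was reached at 48 h by 3976 of the 18193 genes. In sham, 74 genes were higher (0.407%) and 4 were lower (0.022%) in caudal cord. At 48 h the 4 caudal arrays lay entirely above the 4 rostral arrays for 952 genes (5.23%) and entirely below for 1134 (6.23%). These non-overlap counts have no sham counterpart here. With each condition fitted alone the order of the counts was the opposite: the 8 arrays at 48 h gave 73 higher and 19 lower, and the 7 sham arrays, whose spread was smaller, gave 835 in both directions together. Without caudal arrays 271, 274 and 280 the counts at 48 h were 1530 higher and 1572 lower. Leaving out rostral array 273 gave 371 higher and 114 lower, leaving out rostral array 274 gave 382 and 134, and leaving out caudal array 274 gave 1126 and 941. Of the 694 higher genes, 455 (65.6%) had a sham difference smaller than 0.25, and of the 334 lower genes 251 (75.1%) did.

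Among the higher genes the median change from sham was larger in caudal than in rostral cord, though single genes such as Hoxd10 and Pmp2 had a lower mean in caudal cord at 48 h than in sham. Their median regional difference was 0.93, against 0.10 in sham. From sham to 48 h their median change was 0.82 in caudal cord and 0.10 in rostral cord. For the lower genes the median difference was -0.60 at 48 h and -0.12 in sham, with a median change of -0.37 in caudal cord and 0.01 in rostral cord. Over all genes the median regional difference was 0.02 at 48 h and -0.01 in sham. These medians describe genes chosen by the 48 h difference itself.

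The regional difference seen in sham was largely still present. Of the 74 genes higher in sham caudal cord, 57 (77%) were also higher at 48 h, which is 8.21% of the 48 h list. All 4 genes lower in sham caudal cord (Hoxc5, Hoxc4, Hoxa4 and Cilp) were lower at 48 h, which is 1.2% of that list. The 2 comparisons share no array, but in this fit they share each gene's estimate of spread, so their calls are not independent. Among the 17 genes called in sham and not at 48 h were the nociceptor sodium channels Scn9a and Scn11a, the neurotrophin receptor Ngfr and the water channel Aqp1, and of the 17 only Aqp1 passed the test of a difference between the 2 regional differences.

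**Figure D1:**
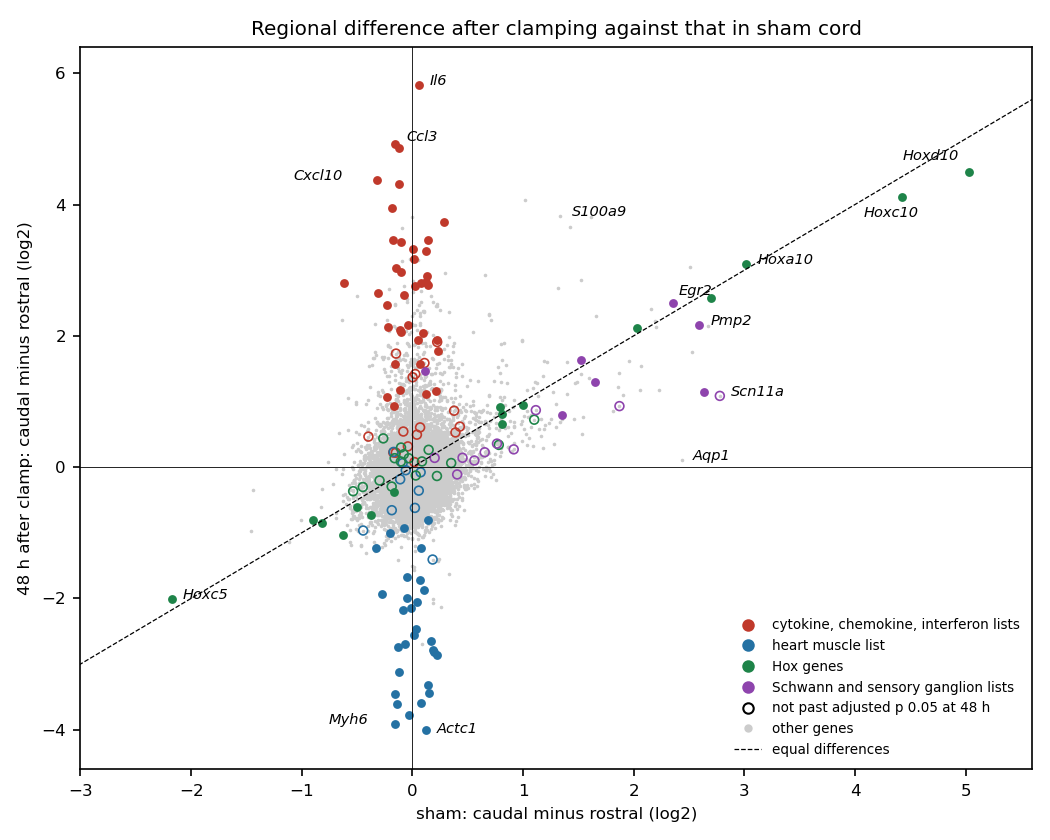
Regional difference (caudal minus rostral, log2) of each gene at 48 h after clamping, on the vertical axis, against the same difference in sham, on the horizontal axis. Colours mark cytokine, chemokine and interferon-response genes, heart muscle genes, Hox genes, and Schwann cell and sensory ganglion genes, with open symbols for those not past adjusted p 0.05 at 48 h and a dashed line of equal differences. Hoxd10 (5.03 in sham, 4.49 at 48 h) lies near the line, Il6 (5.83 at 48 h) far above it and Actc1 (-4.01 at 48 h) far below it.

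The Hox genes held their regional order after clamping. Of the 10 measured genes of paralogue groups 10 to 13, which mark lumbosacral cord, 6 were higher in caudal cord at 48 h and none lower, with a median difference of 0.73 (0.81 in sham). Hoxd10, which patterns lumbar motor neurons, had levels of 7.98, 9.23, 8.64 and 8.71 on the caudal arrays 271 to 274 and of 3.98, 4.27, 4.15 and 4.18 on the rostral ones. The groups were far apart, and the difference was 4.49 ± 0.20 (adjusted p = 2.25e-08), with 5.03 in sham. Caudal array 271, the lowest at 48 h, was below all 3 sham caudal arrays, which read 9.44, 9.34 and 9.33. Hoxc10 differed by 4.11 ± 0.23 at 48 h and by 4.43 in sham, and Hoxa10 by 3.10 and 3.02.

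Of the 23 measured genes of groups 1 to 9, 3 were higher in caudal cord (Hoxd9 by 2.58, Hoxa9 by 2.12 and Hoxc9 by 0.91) and 7 were lower. Hoxc5, a brachial and cervical gene needed for the phrenic motor column, read 6.00, 6.01, 6.24 and 5.91 in caudal cord and 8.0, 7.86, 8.13 and 8.22 in rostral cord. The difference was -2.01 ± 0.12 (adjusted p = 3.82e-07), with -2.18 in sham. Hoxa5 (-1.04), Hoxc4 (-0.84), Hoxa4 (-0.80), Hoxb5 (-0.72) and Hoxc8 (-0.60) were lower too, as was Hoxa7 (-0.38), whose call was lost without caudal array 272 or without any 1 of the 4 rostral arrays (adjusted p up to 0.0977). In the 8 arrays alone 4 of the 6 higher and 5 of the 10 called genes of groups 1 to 9 remained called. No Hox gene passed the test that its difference at 48 h was not that of sham.

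Genes of Schwann cells were also higher in caudal cord in both conditions, and whether nerve roots were in the samples was not tested. Of 8 measured Schwann cell genes, 6 were higher at 48 h (4 in the 8 arrays alone) and 5 in sham, with medians of 1.38 and 1.44. Pmp2, the peripheral myelin fatty acid binding protein, was 7.19, 6.48, 6.96 and 6.92 in caudal cord and 4.67, 4.78, 4.63 and 4.79 in rostral cord at 48 h. Its difference was 2.17 ± 0.13 (adjusted p = 3.82e-07) and 2.59 in sham, and its caudal level fell by 0.94 from sham (adjusted p = 0.00136). Egr2, the transcription factor that switches on peripheral myelination, differed by 2.51 ± 0.22 at 48 h and by 2.35 in sham. Pou3f1, a factor of promyelinating Schwann cells that is also expressed in other cells, was the member without a sham counterpart: it differed by 1.46 ± 0.31 (adjusted p = 0.0131) at 48 h and by 0.11 in sham, and rose in caudal cord by 1.72 (adjusted p = 0.00869).

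Genes of sensory ganglion neurons showed the same direction with smaller differences at 48 h. Of 9 measured, 1 was called at 48 h and 4 in sham, with medians of 0.27 and 0.76. Pirt, a regulator of the heat receptor of nociceptors, differed by 1.15 ± 0.30 (adjusted p = 0.0379) at 48 h and by 2.63 in sham. That call was lost without caudal arrays 272 or 273, rostral arrays 271, 273 or 274, or any 1 rostral sham array (adjusted p up to 0.131). Scn11a differed by 1.08 (adjusted p = 0.112) at 48 h and by 2.78 (adjusted p = 0.00307) in sham. With the array number as a replicate block, 3 of the 9 were called at 48 h, Scn11a and Avil being the additions. The difference between 48 h and sham was not called for Pirt (adjusted p = 0.277) or Scn11a (adjusted p = 0.366).

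Aqp1, a water channel of red cells, endothelium and nociceptor fibres, was the only gene among these whose regional difference itself differed from sham in the main fit. With the replicate block Pou3f1 did so too (limma, adjusted p = 0.0351). The Aqp1 values were as follows. In sham Aqp1 read 7.61, 7.62 and 7.60 in caudal cord and 5.44, 5.22, 5.15 and 4.88 in rostral cord, with no overlap. At 48 h it read 6.82, 7.14, 6.83 and 6.3 in caudal cord and 6.10, 7.39, 7.14 and 6.05 in rostral cord, and the groups overlapped. The difference was 2.44 in sham and 0.10 (interval -0.47 to 0.68) at 48 h, and the 2 differed by -2.33 (adjusted p = 0.0167). Its rostral level rose by 1.5 (adjusted p = 0.0236). Heart muscle genes had median changes of 1.80, 2.89, 3.37 and 2.27 on the same rostral arrays, and their part in the Aqp1 result was not tested. Without sham caudal array 278, 279 or 280 the Aqp1 call was lost (adjusted p up to 0.069).

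Inflammatory cytokines and the genes of the NF-kappaB pathway were higher in the clamped caudal cord. Of 23 measured, 16 were higher and none lower, against 3.81% and 1.84% of all genes, and 5 of them were called in the 8 arrays alone. Their median difference was 1.91 at 48 h and 0.03 in sham. From sham, 19 of the 23 rose in caudal cord, where 647 of all genes rose (3.56%) and 374 fell (2.06%). None of the 23 passed the test in rostral cord, where 59 of all genes rose (0.324%) and 9 fell (0.0495%). The shared fit was less sensitive there, as the rostral arrays varied less than the caudal ones. The median change of the 23 was 2.72 in caudal cord and 0.33 in rostral cord, where single arrays gave 0.51, 0.70, 0.20 and 0.04 in the order 271 to 274.

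NF-kappaB carries signals from injury and microbial receptors to the nucleus, where it binds short sites near its target genes, and interferon-stimulated genes carry a separate response element. The 250 bases before the annotated start of the genes with the largest differences were searched for both, and for the CArG box bound by serum response factor at muscle genes. The searched letters were GGGANNTTCC for NF-kappaB and GAAANNGAAA for the interferon element, on both strands. Of 32851 promoters of this length in the RefSeq annotation of GRCm38.p6, 397 (1.21%) held the first, 978 (2.98%) the second and 482 (1.47%) a CArG box. Of the 12 genes with the largest higher levels, 9 had a promoter in that table: Il6, Cxcl2 and Cxcl10 held the NF-kappaB letters and Cxcl10 also held the interferon letters. All 12 genes with the largest lower levels had one, and Actc1 alone held a CArG box. The 4 promoters that held a match are shown because the results below turn on these genes. Capitals mark the matched letters. They lie 44 to 35 bases before the start in Il6 (chr5:30012864-30013113, plus strand). In Cxcl2 (chr5:90903649-90903898, plus strand) 2 overlapping matches lie 97 to 88 and 96 to 87 bases before it. In Cxcl10 (chr5:92348890-92349139, minus strand) the interferon letters lie 213 to 204 bases and the NF-kappaB letters 159 to 150 bases before it. In Actc1 (chr2:114052876-114053125, minus strand) the CArG box lies 47 to 38 bases before it. A match describes these letters only and says nothing of binding.
Il6: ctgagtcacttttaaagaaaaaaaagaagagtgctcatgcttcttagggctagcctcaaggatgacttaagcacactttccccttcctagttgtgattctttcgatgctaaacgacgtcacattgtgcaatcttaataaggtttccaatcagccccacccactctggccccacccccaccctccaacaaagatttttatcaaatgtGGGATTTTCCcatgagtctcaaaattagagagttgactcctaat
Cxcl2: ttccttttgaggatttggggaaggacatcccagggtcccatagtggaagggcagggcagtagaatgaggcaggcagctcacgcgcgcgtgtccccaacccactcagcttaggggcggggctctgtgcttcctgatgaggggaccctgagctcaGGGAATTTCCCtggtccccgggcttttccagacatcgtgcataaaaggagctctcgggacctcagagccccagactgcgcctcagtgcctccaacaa
Cxcl10: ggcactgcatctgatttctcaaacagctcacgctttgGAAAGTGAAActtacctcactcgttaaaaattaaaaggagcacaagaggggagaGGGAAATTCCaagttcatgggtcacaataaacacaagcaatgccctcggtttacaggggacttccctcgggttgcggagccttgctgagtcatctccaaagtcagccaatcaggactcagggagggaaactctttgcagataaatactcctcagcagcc
Actc1: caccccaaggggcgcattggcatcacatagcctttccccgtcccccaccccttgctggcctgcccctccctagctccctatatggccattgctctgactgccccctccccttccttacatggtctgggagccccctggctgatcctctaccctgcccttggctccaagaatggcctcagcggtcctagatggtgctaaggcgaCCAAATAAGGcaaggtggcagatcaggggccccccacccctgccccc

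Il6, the cytokine that drives the acute phase response, had the largest difference of any named gene. Its level was 12.49, 11.73, 10.67 and 9.45 on the caudal arrays and 5.64, 5.67, 5.66 and 4.06 on the rostral arrays at 48 h. Sham levels were 3.89, 4.03 and 3.93 in caudal cord and 3.97, 3.78, 4.06 and 3.75 in rostral cord. All 4 caudal arrays at 48 h stood far above every other array, and 3 of the 4 rostral arrays stood above sham while array 274 read as sham did. The difference was 5.83 ± 0.50 (interval 4.75 to 6.91, adjusted p = 9.56e-06). Caudal Il6 rose by 7.14 from sham, and the rostral change was 1.37 (adjusted p = 0.553).

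The interleukin 1 family was next. Il1b, the secreted cytokine processed by the inflammasome, read 11.44, 10.83, 9.36 and 7.14 in caudal cord and 5.83, 6.07, 5.47 and 5.62 in rostral cord, so that caudal array 274 was the lowest of its group and still above all rostral arrays. The difference was 3.95 ± 0.63 (adjusted p = 0.00202, and 0.074 in the 8 arrays alone). Il1a, its sister cytokine released from dying cells, differed by 2.98 ± 0.31 (adjusted p = 6.85e-05). Il1rn, the secreted antagonist of both, differed by 3.32 ± 0.57.

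Some other genes of the pathway were higher as well, but not all. With the replicate block, 7 of the 23 were called as higher against sham. The receptors Il6ra (0.10) and Osmr (0.49) were not called in that test, nor were Nfkb2 (0.04) and Nfkbia (0.60). Tlr2, a receptor for microbial and damage-derived ligands, differed by 2.65 ± 0.29 (adjusted p = 9.38e-05). Nfkbiz, a nuclear regulator that directs NF-kappaB to Il6, differed by 1.76 ± 0.20 and Tnfaip3, the deubiquitinase that ends the signal, by 2.82 ± 0.37. Ptgs2, the inducible cyclooxygenase, differed by 3.18 ± 0.58. Tnf differed by 1.56 ± 0.27 and the leukocyte adhesion molecule Icam1 by 1.94 ± 0.50, although the Icam1 groups overlapped. Sele and Selp, the endothelial selectins, had differences of 1.37 (adjusted p = 0.253) and 1.42 (adjusted p = 0.226). Socs3, the inhibitor of Il6 family signalling, rose by 4.96 in caudal cord and differed between regions by 1.91 (adjusted p = 0.124), with a rostral change of 3.28 (adjusted p = 0.0602).

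**Figure D2:**
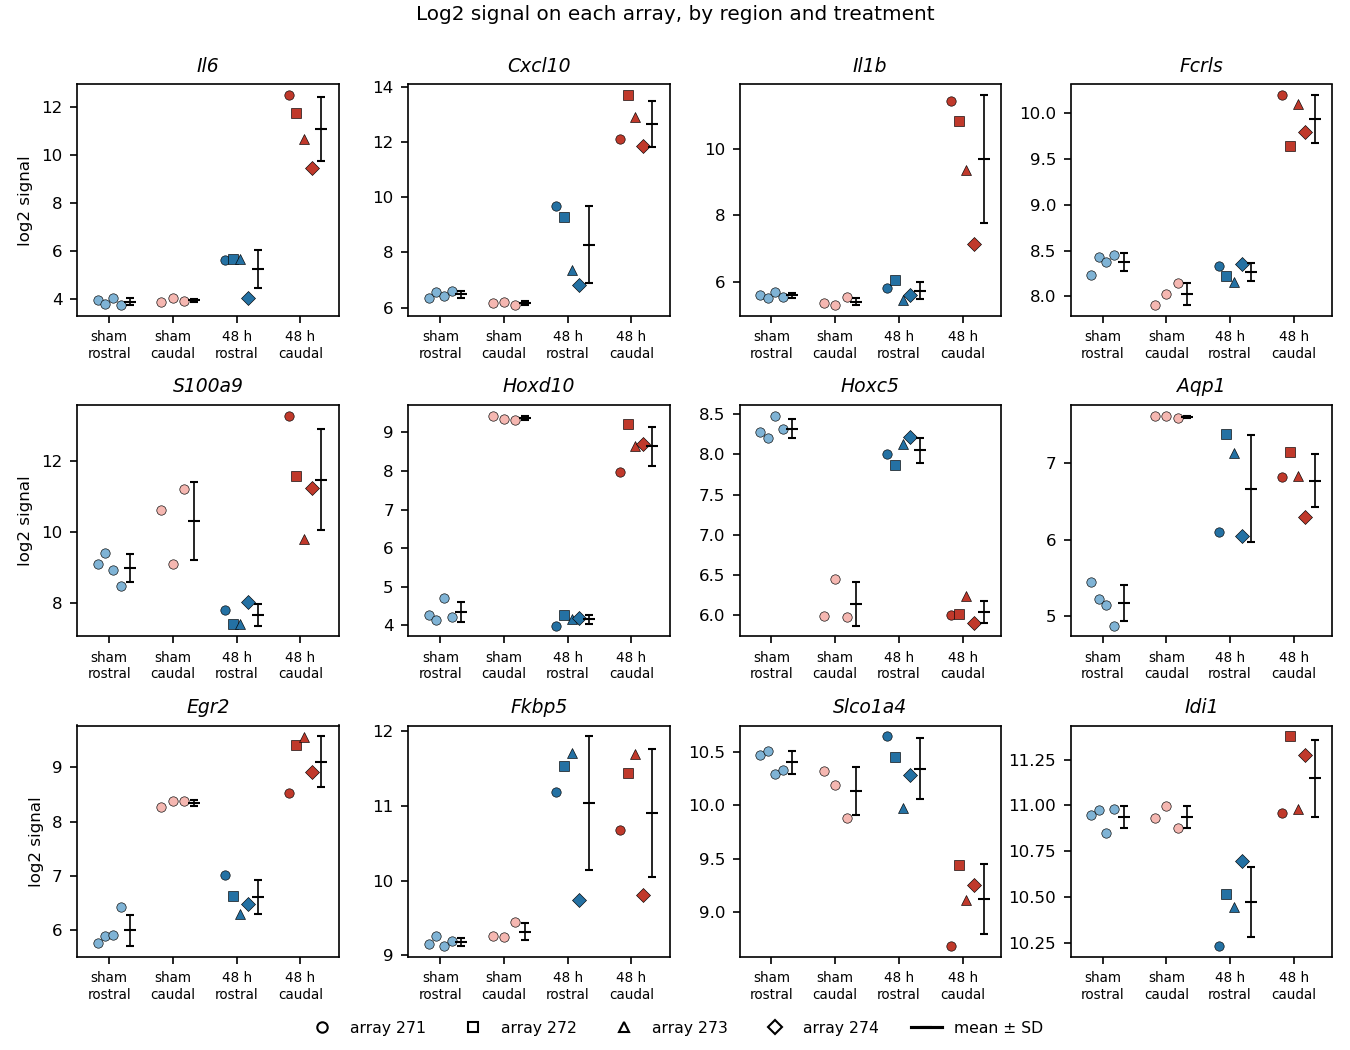
Log2 signal of 12 genes on each array, with the mean and SD of each group, for rostral and caudal cord in sham and 48 h after clamping. Il6, Cxcl10 and Il1b stand apart in the clamped caudal group, Hoxd10 and Hoxc5 divide by region in both conditions, Aqp1 divides by region in sham (7.60 to 7.62 against 4.88 to 5.44) and overlaps at 48 h, and Fkbp5 stands above sham in both clamped groups.

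Chemokines followed the cytokines. Of 19 measured, 12 were higher in caudal cord and none lower (4 higher in the 8 arrays alone), with a median of 1.94 at 48 h and -0.12 in sham. In caudal cord 11 rose from sham. Ccl4, a chemokine made by activated microglia and macrophages, read 11.49, 11.44, 10.62 and 10.78 in caudal cord and 7.93, 8.25, 7.14 and 7.27 in rostral cord. The caudal arrays were close together and all above rostral and sham, where levels ran from 6.92 to 7.30. The difference was 3.44 ± 0.24 (adjusted p = 8.46e-07).

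Ccl3, a related chemokine of the same cells, read 11.14, 11.96, 11.14 and 10.26 in caudal cord and 7.17, 7.77, 4.83 and 5.02 in rostral cord, and differed by 4.92 ± 0.54. In rostral cord arrays 271 and 272 were higher than arrays 273 and 274. The same order held for Ccl2, the main attractant of CCR2 monocytes, at 8.35, 8.33, 6.28 and 6.21 in rostral cord against 12.89, 12.86, 11.05 and 9.59 in caudal cord. Ccl2 differed by 4.31 ± 0.65 (adjusted p = 0.00146, and 0.0672 in the 8 arrays alone). Ccl12 and Ccl7, which act on the same receptor, differed by 2.80 ± 0.41 and 3.47 ± 0.53.

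Cxcl2, a neutrophil attractant, read 11.28, 10.04, 9.18 and 6.67 in caudal cord and 4.34, 4.81, 4.56 and 3.99 in rostral cord. Caudal array 274 was again the lowest of its group and above all rostral arrays. The difference was 4.87 ± 0.64 (adjusted p = 0.000567), and Cxcl1, which shares its receptor, differed by 2.63 ± 0.45. Cxcl10, the interferon-induced attractant of T cells, read 12.10, 13.71, 12.93 and 11.87 in caudal cord and 9.69, 9.28, 7.35 and 6.82 in rostral cord, against 6.08 to 6.60 in sham. Its difference was 4.37 ± 0.53 (adjusted p = 0.000301). Ccl11, the eosinophil attractant, differed by 4.06 ± 0.59 (adjusted p = 0.00112, and 0.0594 in the 8 arrays alone), with 1.02 in sham. Tslp, an epithelial cytokine that is on no list here, differed by 3.65 ± 0.46, with levels of 9.23, 8.15, 7.78 and 5.84 in caudal cord and of 3.96 to 4.27 in rostral cord.

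The interferon response was higher in caudal cord as a group. Of 13 measured genes, 11 were higher and none lower (2 in the 8 arrays alone), and the median difference was 2.17 at 48 h and 0.08 in sham. All 13 rose in caudal cord, by a median of 3.37. None passed the test in rostral cord, where the median change was 1.12. Rsad2, an antiviral radical SAM enzyme, read 12.51, 13.78, 12.87 and 12.02 in caudal cord and 10.17, 10.06, 8.30 and 7.73 in rostral cord. Rostral arrays 271 and 272 stood above every sham array, which read 7.43 to 8.03, and the other rostral arrays were near sham. The difference was 3.73 (adjusted p = 0.000393). Ifit2, an RNA-binding inhibitor of translation, differed by 2.78 (adjusted p = 0.000479), Oasl1 by 2.80, and the transcription factors Irf1 and Irf7 by 1.58 and 2.13.

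Genes of peptide presentation to T cells were higher with it. Of 13 measured, 10 were higher and none lower (none in the 8 arrays alone), with a median of 0.92 at 48 h and 0.05 in sham. Tap1, a subunit of the peptide transporter, differed by 2.05 (adjusted p = 0.00348, and 0.0918 in the 8 arrays alone). Tap2, its partner, differed by 0.92, the immunoproteasome subunit Psmb9 by 2.16 and the class I heavy chain H2-K1 by 1.18. H2-Eb1, a class II chain, was higher in caudal cord by 0.73 at 48 h and 0.56 in sham, while from sham it fell by 0.56 in caudal cord (adjusted p = 0.0458) and fell by 0.73 in rostral cord (adjusted p = 0.0387). Of the other 4 class II genes on the list, H2-Aa and H2-Ab1 were higher in caudal cord (1.43 and 0.70). Cd74 and Ciita were not called, and none of the 4 changed from sham past the test. With the replicate block, the regional differences of H2-Aa and H2-Ab1 exceeded those of sham by 0.54 and 0.09 (limma, adjusted p = 0.51 and 0.868).

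**Figure D3:**
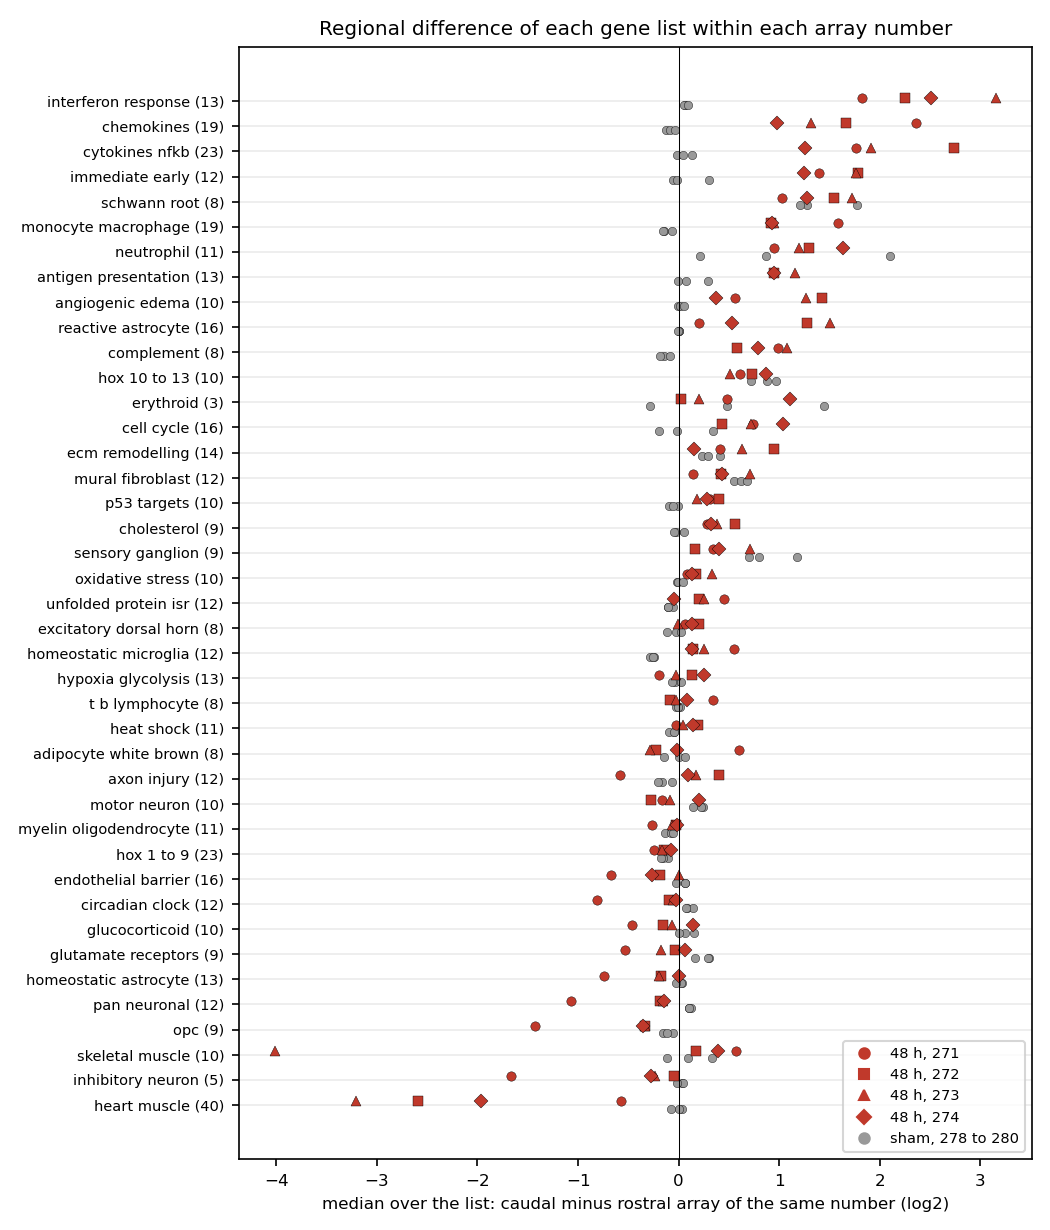
Median regional difference (caudal minus rostral, log2) of gene lists within each array number, for the 4 numbers at 48 h and the 3 sham numbers that have both regions. Interferon-response medians run from 1.82 to 3.15 and cytokine medians from 1.25 to 2.74 at 48 h, heart muscle medians from -3.21 to -0.57, and the pan-neuronal median is -1.07 for number 271 and -0.18 to -0.14 for the others.

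Few genes of resting microglia separated the regions. Of 12 measured, 2 were higher in caudal cord and none lower, with medians of 0.11 at 48 h (0.01 to 0.24 with 1 array left out) and -0.22 in sham. Fcrls, an Fc receptor-like protein of microglia, was 1 of the 2: it read 10.19, 9.64, 10.10 and 9.79 in caudal cord and 8.34, 8.22, 8.15 and 8.35 in rostral cord. Sham levels were 7.90 to 8.14 in caudal cord and 8.23 to 8.45 in rostral cord, so the clamped caudal arrays stood above all others and within a narrow range. The difference was 1.66 ± 0.12 (adjusted p = 1.22e-06, and 0.0016 in the 8 arrays alone). Olfml3 was the other, by 0.68 (adjusted p = 0.0068). The purinergic receptor P2ry12 and the growth factor receptor Csf1r, which define resting microglia, differed by -0.33 (interval -1.04 to 0.37) and -0.07 (interval -0.57 to 0.43).

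Of 19 genes of activated microglia and infiltrating macrophages, 8 were higher and 1 lower, with a median of 1.32 at 48 h (0.57 without caudal array 271) and -0.12 in sham. The count of higher genes was 13 with the replicate block, 5 without rostral array 273 or 274, and 2 in the 8 arrays alone. Cybb, the catalytic subunit of the phagocyte oxidase, read 9.13, 9.69, 8.81 and 8.09 in caudal cord and 6.33, 6.33, 5.64 and 5.73 in rostral cord. It differed by 2.92 ± 0.27 (adjusted p = 2.07e-05), with no overlap. Fcgr1, the high-affinity IgG receptor, differed by 1.76 ± 0.22, the endotoxin co-receptor Cd14 by 2.71 ± 0.44 and the lysosomal protein Cd68 by 1.65 ± 0.28.

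Some genes induced in activated myeloid cells stood outside that list. Clec7a, the receptor for fungal glucan, read 12.18, 10.08, 10.30 and 10.08 in caudal cord and 8.03, 7.82, 6.73 and 7.38 in rostral cord, and differed by 3.17 ± 0.39 (adjusted p = 0.000294). Caudal array 271 stood apart above the other 3. Acod1, which makes itaconate, differed by 3.80 ± 0.50 and the fatty acid receptor Gpr84 by 2.60 ± 0.41. Chil3, a chitinase-like protein of alternatively activated macrophages and neutrophils, differed by 3.81 ± 0.63, with 1.61 in sham. The 1 lower gene of the macrophage list was Lpl, lipoprotein lipase: it rose in both regions, by 2.23 in caudal cord and 2.79 in rostral cord, and differed by -0.87 (adjusted p = 0.00571). Lpl is also expressed in heart muscle, whose genes were higher on the same rostral arrays, and their part in the Lpl result was not tested.

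Complement genes gave 4 of 8 higher and none lower, with a median of 0.83. The count was 6 with the replicate block and 7 without caudal array 274. It was 2 without caudal array 272, without rostral array 273 or 274, or without any 1 sham array, and 0 in the 8 arrays alone. C1qc, a chain of the molecule that starts the classical pathway, differed by 0.96 ± 0.15 (adjusted p = 0.0021), with -0.42 in sham, and rose in caudal cord by 1.59. C1qa differed by 0.69 ± 0.14, with -0.40 in sham.

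Neutrophil genes were higher in caudal cord at 48 h, with a similar direction in sham. Of 11 measured, 5 were higher and none lower, with a median of 1.28 at 48 h and 0.91 in sham. The count was 3 without rostral array 273 or 274 and 2 in the 8 arrays alone. S100a9, a subunit of calprotectin, the main cytosolic protein of neutrophils, read 13.28, 11.58, 9.80 and 11.23 in caudal cord and 7.79, 7.40, 7.39 and 8.01 in rostral cord. Sham read 10.63, 9.09 and 11.19 in caudal cord and 9.08, 9.41, 8.91 and 8.46 in rostral cord. At 48 h the regions did not overlap. Caudal arrays 271, 272 and 274 lay above the caudal sham range and array 273 within it, and all 4 rostral arrays lay below rostral sham.

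The S100a9 difference was 3.83 ± 0.57 (adjusted p = 0.00139) at 48 h and 1.34 in sham. Neither region changed from sham past the test: the caudal change was 1.17 (adjusted p = 0.222) and the rostral change -1.32 (adjusted p = 0.754), and the difference from sham was not called (adjusted p = 0.398). S100a8, its partner, differed by 3.66 ± 0.52, with 1.43 in sham. Ngp, a granule protein, differed by 2.72 ± 0.51 with 1.31 in sham, and Mmp8, the neutrophil collagenase, by 2.05 ± 0.48 with 0.55 in sham. The 3 measured red cell genes moved beside the neutrophil genes over the caudal arrays. At 48 h the median changes from caudal sham were 1.28, -0.32, -0.51 and 0.79 for neutrophil genes and 0.42, -0.44, -0.23 and 0.40 for red cell genes, in the order 271 to 274. On caudal sham arrays 278 to 280 they were 0.15, -0.97 and 0.83, and -0.14, -0.81 and 0.97. The part of blood left in the tissue was not tested. Genes of T and B lymphocytes gave 0 calls of 8 by limma, and 0 at an unadjusted p under 0.05.

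Immediate early genes, transcription factors and regulators induced within minutes of a stimulus, were higher in caudal cord almost throughout. Of 12 measured, 11 were higher and none lower (3 in the 8 arrays alone), with a median of 1.55 at 48 h and 0.04 in sham. All 12 rose in caudal cord from sham. In rostral cord 2 rose, Fos and Fosl2. Egr3, an activity-induced zinc finger factor, read 9.20, 9.06, 9.06 and 8.18 in caudal cord and 6.31, 6.25, 6.85 and 6.70 in rostral cord, against 6.46 to 7.01 in sham. The difference was 2.35 ± 0.21 (adjusted p = 1.3e-05). Fos, the best known of the group, read 11.81, 12.63, 12.52 and 11.61 in caudal cord and 11.11, 11.34, 10.36 and 10.58 in rostral cord, with 9.39 to 9.66 in sham. Both clamped groups stood above sham, the caudal one more so, and they differed by 1.29 ± 0.23 (adjusted p = 0.00458). Egr1 differed by 1.42 ± 0.18 and Ier2 by 1.56 ± 0.18.

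Atf3, a stress-induced factor and a classic marker of injured axons, read 10.90, 10.41, 9.81 and 8.96 in caudal cord and 8.08, 8.17, 7.48 and 7.42 in rostral cord. It differed by 2.23 ± 0.31 (adjusted p = 0.000939, and 0.0524 in the 8 arrays alone). In sham the order was the opposite, at 6.25, 6.39 and 6.58 in caudal cord and 6.86 to 7.24 in rostral cord, a difference of -0.64. The other injury genes of axons gave little: of 12 on that list, 3 were higher (Atf3, Jun by 1.03 and Crem by 1.11) and 1 lower (Csrp3 by -2.56, also a heart muscle gene). Gap43, the growth cone protein, differed by 0.07 and Sprr1a by -0.35, both short of the test.

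Stress pathways moved in few genes. Heat shock gave 1 higher of 11 (Hspa1a, 1.12, with Hspa1b, 1.31, added by the replicate block), the unfolded protein and integrated stress responses 2 of 12 (Ppp1r15a, 0.93, and Atf4, 0.55) and hypoxia and glycolysis 2 of 13 (Ldha, 0.90, and Hk2, 0.60). The oxidative stress list gave 1 of 10 (Hmox1, heme oxygenase, 1.99) and the p53 list 2 of 10 (the death receptor Fas, 0.96, and Casp8, 0.83). None was lower on these 5 lists. All of these calls but Ppp1r15a were lost with 1 or more arrays left out: Hspa1a, Hmox1 and Ldha without rostral array 273 or 274, Hk2 without rostral array 274, Fas also without caudal array 272, and Atf4 and Casp8 without most arrays in turn (adjusted p up to 0.113 and 0.15). In the 8 arrays alone none of these 8 genes was called.

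Cell division genes were higher in caudal cord. Of 16 measured, 9 were higher and none lower, with a median of 0.68 at 48 h and -0.01 in sham. The count was 5 without rostral array 273 and 1 in the 8 arrays alone. Ccnb2, a mitotic cyclin, read 6.24, 5.99, 6.23 and 6.57 in caudal cord and 5.39, 5.25, 5.51 and 5.41 in rostral cord, with no overlap. It differed by 0.87 ± 0.13 (adjusted p = 0.00141, and 0.042 in the 8 arrays alone). Birc5, the mitotic protein survivin, differed by 1.15 ± 0.22, the G1 cyclin Ccnd1 by 1.05 ± 0.17, and Cdk1, the mitotic kinase, by 1.46 ± 0.31.

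Some enzymes of cholesterol synthesis were higher in caudal than in rostral cord. Of 9 measured enzymes and regulators, 4 were higher in caudal cord and none lower (0 in the 8 arrays alone), with a median of 0.34. The median change from sham was -0.10 in caudal cord and -0.47 in rostral cord. Idi1, an isomerase early in isoprenoid synthesis, read 10.96, 11.38, 10.98 and 11.27 in caudal cord and 10.23, 10.52, 10.45 and 10.70 in rostral cord, with no sham array below 10.85. The rostral arrays stood below every sham array, while the caudal arrays lay within or above the sham range. The difference was 0.68 ± 0.12 (adjusted p = 0.00335), with a rostral change of -0.47 (adjusted p = 0.171). Fdft1, squalene synthase, differed by 0.62 ± 0.09 (adjusted p = 0.000965), with a rostral change of -0.40 (adjusted p = 0.0829). In rostral cord 2 of the 9 fell from sham, Lss by 0.63 (adjusted p = 0.00136) and Dhcr7 by 0.73 (adjusted p = 0.0334). The regional call for Lss was lost with the replicate block (adjusted p = 0.0788), and 2 of its 3 probe sets had the opposite sign.

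Reactive astrocyte genes rose in caudal cord but separated the regions less well. Of 16 measured, 13 rose from sham in caudal cord and none passed the test in rostral cord, with median changes of 2.10 and 1.15. On single arrays 271 to 274 the median change of the list was 2.55, 2.83, 2.13 and 0.66 in caudal cord. In rostral cord it was 1.92, 1.98, 0.65 and 0.11, so rostral arrays 271 and 272 were raised as well. Between regions 4 were higher and none lower, with a median of 0.84 at 48 h (0.47 without caudal array 272 and 0.48 without rostral array 274) and 0.04 in sham. The count was 7 with the replicate block and 8 without caudal array 274. It was 2 without caudal array 271 or 272, without rostral array 273 or 274, or without any 1 sham array, and 0 in the 8 arrays alone. Ptx3, a pattern recognition protein, was higher by 3.46 with overlapping groups, S1pr3, a sphingosine receptor, by 1.29 with 1.11 in sham, and Timp1, an inhibitor of metalloproteinases, had a difference of 2.12 (adjusted p = 0.0532). Gfap, the intermediate filament of astrocytes, differed by 0.25 (interval -0.11 to 0.61). Of 13 genes of resting astrocytes, 1 was lower, Ntsr2 by -0.77 (adjusted p = 0.0359). That call was lost without any 1 rostral array, or without any 1 sham array other than caudal 280 (adjusted p up to 0.113). The replicate block added Fgfr3 (-0.89, adjusted p = 0.0354 with the block).

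Among vascular genes, the transporter Slco1a4 stood out. It encodes an organic anion transporter of brain endothelium and read 8.67, 9.44, 9.11 and 9.26 in caudal cord and 10.65, 10.46, 9.98 and 10.28 in rostral cord. Sham levels were 9.88 to 10.32 in caudal cord and 10.29 to 10.51 in rostral cord, so all 4 caudal arrays at 48 h lay below every other array. The difference was -1.22 ± 0.17 (adjusted p = 0.000861), and caudal Slco1a4 fell by 1.01 from sham (adjusted p = 0.00501). It was the 1 of 16 endothelial barrier genes called, and the median of the list was -0.21 (-0.34 without rostral array 273). With the replicate block 5 of the 16 were lower, among them the efflux pump Abcb1a (-0.80), the lipid transporter Mfsd2a and the angiopoietin receptor Tek (-1.08). The count of lower genes was 2 without caudal array 271 or rostral array 274, 3 without caudal array 273 and 4 without caudal array 274.

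Genes of vascular remodelling gave 3 higher of 10 and none lower. The count was 5 with the replicate block, 6 without caudal array 274, 1 without caudal array 272 or rostral array 273 or 274, and 0 in the 8 arrays alone. Plaur, the urokinase receptor, differed by 1.84 ± 0.31 (adjusted p = 0.003), Angpt2, the destabilising ligand of Tek, by 1.02 and the matrix protein Thbs1 by 1.94. Of 14 matrix remodelling genes, 4 were higher (7 without caudal array 274, 0 in the 8 arrays alone). The matrix protein Tnc differed by 1.80 ± 0.37, with 0.28 in sham, whereas the crosslinking enzyme Lox (1.59, with 1.40 in sham) and Tgfbi (1.17, with 1.04 in sham) had sham differences of similar size. Of 12 mural cell and fibroblast genes, 2 were higher, the proteoglycan Ogn by 1.42 and the collagen Col3a1 by 1.09, both called in sham also, by 1.53 and 1.14. The mural count was 4 with the replicate block, 5 without caudal array 271, 4 without caudal array 274, and 1 in the 8 arrays alone.

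The largest lower levels in caudal cord belonged to heart muscle genes, and they came from the rostral arrays. Of 40 measured, none was higher in caudal cord and 30 were lower, against 1.84% of all genes (10 in the 8 arrays alone), with a median of -2.02 at 48 h and -0.03 in sham. From sham, 27 rose in rostral cord, by a median of 2.54 over the list, while 6 rose and 1 fell in caudal cord, with a median of 0.73. Actc1, cardiac actin, whose promoter held the CArG box, read 10.78, 11.74, 12.24 and 11.33 in rostral cord and 7.78, 7.89, 6.91 and 7.49 in caudal cord. Every sham array read 5.16 to 5.38, so both clamped groups stood above sham and the rostral one far above.

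The Actc1 difference was -4.01 ± 0.25 (adjusted p = 3.82e-07). It rose from sham by 6.32 in rostral cord and 2.19 in caudal cord (adjusted p = 5.23e-09 and 0.00037). Myh6, the alpha heavy chain of cardiac myosin, read 9.84, 10.82, 10.40 and 9.47 in rostral cord, 7.38, 6.54, 5.25 and 5.69 in caudal cord and 4.09 to 4.40 in sham. It differed by -3.92 ± 0.37 (adjusted p = 2.1e-05). Pln, which restrains the calcium pump of the heart, differed by -3.77, the ventricular light chain Myl2 by -3.61, the mitochondrial creatine kinase Ckmt2 by -3.60, myoglobin (Mb) by -3.44 and cardiac troponin T (Tnnt2) by -3.31. Nppa, the atrial hormone, read 7.20 on rostral array 271 and 11.04 to 12.00 on the other 3.

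The median change of the heart list on single arrays was 1.80, 2.89, 3.37 and 2.27 in rostral cord and 1.42, 0.50, 0.13 and 0.56 in caudal cord, in the order 271 to 274. Within each number the regional median was -0.57, -2.59, -3.21 and -1.96, all below 0 and smallest for number 271. Skeletal muscle genes did not follow: 0 of 10 were called between regions by limma (1 at an unadjusted p under 0.05), and their change was 3.75 on rostral array 273 alone. With all genes of the heart, skeletal muscle and adipocyte lists left out, 688 genes were higher and 295 lower at 48 h. Whether the heart genes came from the cord was not tested.

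**Figure D4:**
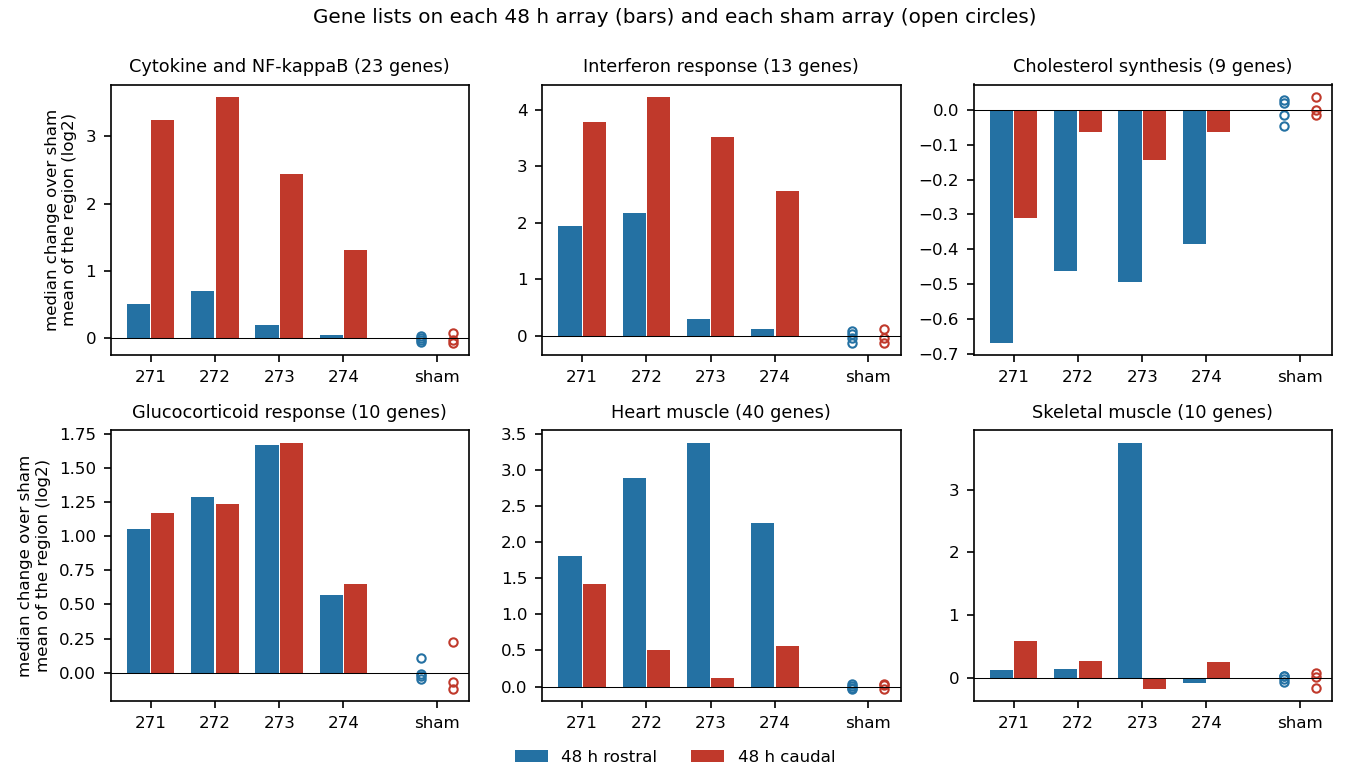
Median change over the sham mean of the same region (log2) for 6 gene lists on each clamped array, caudal and rostral. Cytokine and interferon genes are highest on caudal arrays, heart muscle genes are highest on rostral arrays (1.80 to 3.37 against 0.13 to 1.42), glucocorticoid-induced genes are raised on both, and skeletal muscle genes stand out on rostral array 273 alone.

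Several of the lower genes outside the muscle lists are also muscle genes: the M-band proteins Myom1 (-2.13) and Myom2 (-2.70), Lmod2 (-1.50), the muscle enolase Eno3 (-1.43), Srl (-1.57) and Myzap (-1.28). Dsp, the desmosome plaque protein, and Cd36, the fatty acid receptor, also rose in rostral cord, by 3.03 and 3.54, and differed by -1.63 and -2.02. Gucy1a1, a subunit of the nitric oxide receptor, took the other route: it fell by 0.95 in caudal cord (adjusted p = 0.044) with -0.10 in rostral cord, and differed by -1.19 (adjusted p = 0.00908, and 0.129 in the 8 arrays alone). Without rostral array 273 the calls for Dsp and for Dmp1 (-1.27) were lost (adjusted p = 0.0593 and 0.0626).

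Neuronal and oligodendrocyte genes gave few calls. Of 12 pan-neuronal genes none was called by limma and 8 had an unadjusted p under 0.05, with a median of -0.36. Over all genes 3976 of 18193 had an unadjusted p under 0.05 in this comparison, and the unadjusted list counts are to be read against that share. Snap25, a protein of the vesicle fusion machinery, read 12.36, 13.38, 13.35 and 13.33 in caudal cord and 13.47, 13.50, 13.58 and 13.63 in rostral cord, so that all 4 caudal arrays were below the rostral ones and array 271 was far below. The difference was -0.44 (interval -0.82 to -0.06, adjusted p = 0.168). The median of the list within each number was -1.07 for number 271 and -0.18, -0.16 and -0.14 for the others, and without caudal array 271 the fitted median was -0.19. Inhibitory neuron genes gave 0 calls of 5 and 3 at an unadjusted p under 0.05 (median -0.62, and -0.26 without caudal array 271). Excitatory dorsal horn genes gave 0 calls of 8 and 1 unadjusted (median 0.13, and 0.06 to 0.21 with 1 array left out), and glutamate receptors 0 of 9 and 2 unadjusted (median -0.31, and 0.04 without caudal array 271).

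Of 10 motor neuron genes, 1 was lower and 1 higher. Slc5a7, the choline transporter, differed by -1.14 ± 0.26 (adjusted p = 0.0189) at 48 h and by -1.11 in sham, and its call was lost without rostral array 272 or 273 (adjusted p up to 0.0687). Uts2, a peptide of motor neurons, differed by 1.02 (adjusted p = 0.0405) at 48 h and by 0.81 in sham, and its call was lost when any 1 of 10 arrays was left out (adjusted p up to 0.138). Myelin genes gave 0 calls of 11 by limma and 1 at an unadjusted p under 0.05, with a median of -0.13 (-0.05 without caudal array 271 and -0.04 without rostral array 274). Oligodendrocyte precursor genes gave 0 of 9 and 5 unadjusted, with a median of -0.46 (-0.30 without caudal array 271), and 2 calls with the replicate block, the receptor Gpr17 (-0.94, adjusted p = 0.00081 with the block) and the factor Olig2 (-0.91).

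Glucocorticoid-induced genes were raised in both regions and did not separate them. Of 10 measured, none was called between regions by limma and 2 had an unadjusted p under 0.05, with a median of -0.24 (0.02 without caudal array 271, and 0.39 without caudal arrays 271, 274 and 280). From sham the median change was 1.13 in caudal cord, where 6 rose, and 1.12 in rostral cord, where 2 rose. Fkbp5, a chaperone of the steroid receptor, read 10.68, 11.45, 11.70 and 9.80 in caudal cord and 11.18, 11.53, 11.71 and 9.73 in rostral cord, against 9.12 to 9.44 in sham. Array 274 was the lowest in both regions. The regional difference was -0.13 (interval -1.0 to 0.74). Mt2, a metallothionein, rose by 1.12 in caudal cord and 0.82 in rostral cord. Between regions, clock genes gave 0 calls of 12, adipocyte genes 0 of 8 and red cell genes 0 of 3, with 2, 2 and 1 at an unadjusted p under 0.05. These unadjusted counts and that of the glucocorticoid list stand beside 3976 of all 18193 genes. With the replicate block 1 glucocorticoid gene was higher (Errfi1) and 1 lower (Pdk4).

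The test of whether the regional difference at 48 h was not that of sham called 52 genes as higher (0.286%) and 17 as lower (0.0934%), 69 in all (0.379%). An unadjusted p under 0.05 was reached by 1486 genes. With the array number as a replicate block 140 were called. Without caudal array 271 the count was 148, without caudal array 274 it was 336, without rostral array 273 or 274 it was 45 and 41, without 1 of the sham caudal arrays it was 26 to 29, and without 1 of the sham rostral arrays it was 40 to 43. The calls included 5 of 23 cytokine genes, 5 of 19 chemokines, 4 of 12 immediate early genes, 1 of 13 interferon genes and 11 of 40 heart muscle genes, the last all lower. With the replicate block these counts were 7, 8, 7, 8 and 7. The limma test called 0 of 13 antigen presentation genes, 0 of 16 cell division genes, 0 of 16 reactive astrocyte genes, 0 of 11 neutrophil genes, 0 of 10 vascular remodelling genes and 0 of 9 cholesterol genes. At an unadjusted p under 0.05 the counts for these 6 lists were 7, 9, 6, 2, 4 and 4, and with the replicate block 3, 0, 3, 0, 2 and 0.

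Among called genes, the largest positive differences from sham were those of Il6 at 5.77 (adjusted p = 0.00288), Ccl3 at 5.08, Cxcl2 at 4.99, Cxcl10 at 4.69, Acod1 at 3.81, Tslp at 3.74, Ccl4 at 3.54 (adjusted p = 0.000381), Ccl12 at 3.41, Clec7a at 3.19 and Gpr84 at 3.11. Fcrls had the smallest adjusted p of those named that were higher, at 2.01 (adjusted p = 0.000177). The largest negative ones among called genes were Actc1 at -4.13 (adjusted p = 0.000177), Myh6 at -3.76, Pln at -3.74, Ckmt2 at -3.67, Myl2 at -3.47 and Tnnt2 at -3.45, all of heart muscle. Il1b (adjusted p = 0.0867) and Ccl2 (adjusted p = 0.0732, and 0.000723 with the replicate block) were not called here although both were called between regions at 48 h. Rsad2 (adjusted p = 0.0128), Irf7 (0.00587), Cd14 (0.0032), Cd68 (0.0043), Ptgs2 (0.0043), Tap1 (0.00653), Ccl7 (0.00587) and Pou3f1 (0.0351) were among the genes called with the block and not without it. Of 37 named genes called, 13 stayed called whichever array was left out, among them Il6, Il1a, Tlr2, Ccl3, Ccl4, Egr3, Fcrls, Actc1 and Myh6. Cxcl10 and Pln were lost without sham caudal array 278, 279 or 280 (adjusted p up to 0.069). Cxcl2, Acod1, Tslp and Gpr84 were lost without most arrays in turn (adjusted p up to 0.13, 0.154, 0.104 and 0.15), and Clec7a and Ccl12 without many of them (up to 0.0995 and 0.0969). With the replicate block Myl2 (adjusted p = 0.117), Tnnc1 (0.113), Srl (0.105) and C1qa (0.0626) were no longer called.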

How the data were processed

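Total RNA was hybridised to Affymetrix Mouse430_2 arrays. The values are log2 signals as the authors deposited them, and the submitters' processing notes name RMA as the method. Precision is limited by the number of arrays. Of 45101 probe sets, 64 were controls, 34945 matched 1 gene symbol in GEO's platform annotation and 932 more than 1, while 9160 had no symbol listed. The first kind gave 18193 genes, 9010 of them with several probe sets, and the probe set with the highest mean was used.

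Means of 4 groups (15 arrays) were fitted in R 4.3.3 with limma 3.58.1, using lmFit, eBayes and Benjamini-Hochberg adjustment (statmod 1.5.0 for the random block). A check on simulated data came first. It gave each gene the same spread in every group, so it did not cover the wider spread of the caudal 48 h arrays. The 6 arrays taken at 24 h were left out because both numbered 283 carry region genes against their labels, and rostral array 276 because its labels conflict on 24 h and 48 h. Regional differences within each number were also taken. Same-numbered samples at 48 h deviated together (r of 0.297, 0.283, 0.234 and 0.532), and in sham r was 0.282, 0.223 and 0.0867. The main fit used no pairing by number. The replicate block, run as an alternative, used the numbers of both conditions, as did the differences within each number.

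The set of arrays in the fit, the 41 gene lists and the rule for named genes were chosen with earlier results of these data known. Named were the 12 largest differences in each direction at 48 h without overlap between groups, with and without muscle and adipocyte lists, the 10 largest in each direction that differed from sham, all Hox genes and the 4 members of each list with the smallest p. Other genes, such as Fos, Fosl2, Gfap, Timp1, Lpl, Fkbp5, Mbp, Pou3f1, Nppa, Cdk1, Dhcr7, Cilp and the further cytokines and chemokines, were chosen after their values were seen. Alternatives were other group sets, normalizations, filters on dim genes, array weights, probe set means, a replicate block and leaving out arrays. Promoter sequences came from RefSeq (GRCm38.p6).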

Additional observations from a re-analysis of the deposited data

Results flagged for a closer look

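In groups of 4 arrays, 12 of 261 sets of values had 1 array far from the other 3, which chance gives in about 1 in 20 groups. The count was thus no more than chance gives, and the sets share arrays and are not independent. Caudal array 271 accounted for 7 of the 12. It was high for Clec7a (12.18 against 10.08 to 10.3) and Lmod2 (4.723 against 4.031 to 4.134) and in the median change of the adipocyte list (0.6151 against -0.01 to 0.09). It was low in the median change of resting astrocyte genes (-0.6104 against -0.11 to -0.01), inhibitory neuron genes (-1.741 against -0.10 to -0.01) and clock genes (-1.078 against -0.17 to -0.0045), and in the SD of signals over probe sets (2.049 against 2.223 to 2.242). Caudal array 274 was low for Gpr84 (8.354 against 10.15 to 10.37) and high in the hypoxia list (0.1673 against -0.08 to -0.05). Rostral array 274 was low for Il6 (4.063 against 5.636 to 5.671), and rostral array 273 was high in the skeletal muscle list (3.754 against -0.08 to 0.14). Sham rostral array 277 was low in the hypoxia list (-0.02883 against -0.00094 to 0.0037).

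The regional difference at 48 h differed from that in sham, by a limma test of the difference itself, for these genes. It was more positive by 5.769 for Il6, 5.081 for Ccl3, 4.989 for Cxcl2, 4.692 for Cxcl10, 3.807 for Acod1, 3.744 for Tslp, 3.536 for Ccl4, 3.415 for Ccl12, 3.193 for Clec7a and 3.106 for Gpr84. It was more negative for Actc1 (-4.128), Myh6 (-3.76), Pln (-3.737), Ckmt2 (-3.671), Myl2 (-3.467), Tnnt2 (-3.454), Tnnc1 (-2.82), Cox6a2 (-2.49), Myom1 (-2.381) and Aqp1 (-2.334).

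Rostral array 276, whose labels disagree on the time after clamping and which entered no group, had a median heart muscle change of 2.759 over rostral sham, where the 4 sham arrays ran from -0.029 to 0.031.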

How the results depend on the processing

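None of the named genes called at 48 h (124) or against sham (37) changed sign under the alternatives run on them, and signs of other genes were not compared. The counts moved, and apart from fewer arrays or genes tested, the cause was not tested. For genes higher in caudal cord at 48 h (694), the 8 arrays alone gave 73, brighter genes 336, array weights 1383, leaving out caudal arrays 271, 274 and 280 gave 1530, a 2-fold minimum 323, and leaving out 1 array 371 to 1126. For genes lower (334), all 6 groups gave 749, the 8 arrays alone 19, brighter genes 182, array weights 1050, a random replicate block 649, array 276 counted as 48 h 570, leaving out the 3 caudal arrays 1572, a 2-fold minimum 57, and leaving out 1 array 114 to 941. For sham (78), the sham arrays alone gave 835, brighter genes 19, array weights 1251, leaving out the 3 caudal arrays 202, leaving out caudal array 271 with rostral array 273 214, and leaving out 1 array 56 to 236. For the difference from sham (69), all 6 groups gave 109, brighter genes 19, array weights 1179, the fixed replicate block 140, the random block 137, array 276 as 48 h 104, leaving out the 3 caudal arrays 708, caudal 271 with rostral 273 116, and leaving out 1 array 26 to 336; it has no value in the fits of the compared arrays alone. The fixed replicate block gave 782 higher, 308 lower and 55 in sham. Among named genes it changed the calls given beside them and added, at 48 h, Dcn, Errfi1, Esm1, Fgfr3, Hspa1b, Pdk4 and Tagln; it changed no other call of these genes at 48 h. Of 124 named genes called at 48 h, 100 stayed called whichever array was left out, and 51 were called in the 8 arrays alone. Repeated quantile normalization gave 671 and 401. Leaving out caudal 271 with rostral 273, or the muscle and adipocyte lists, was chosen after seeing the data. No detection calls were used, so genes near background were not marked.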
